A study of Mus musculus with 6 samples.

Results

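A group of 10 genes that mark the macrophages and monocytes of a tissue were followed in the brown adipose tissue (BAT) of mice that lack soluble ST2. They are Adgre1, Csf1r, Csf1, Cd68, Mrc1, Cd163, Lyve1, Folr2, Timd4 and Ly6c2, found by their gene symbols among the 35976 genes listed, and all 10 were measured. ST2, the receptor of interleukin-33 encoded by Il1rl1, exists as a membrane form and as a secreted form, sST2, that binds interleukin-33 without signalling. RNA-seq was made of 3 libraries from WT mice and 3 from sST2-KO mice. The sST2-KO mice carried a CRISPR/Cas9 deletion of the Il1rl1 intron that lies between exon 8 and exon 9, and the WT mice were their littermates. All 6 mice were C57BL/6J males of about 10 weeks with denervated BAT, kept at 30 °C for 7 days and then at 10 °C for 8 h, so no library shows innervated or warm BAT. The labels number the libraries of a group from 1 to 3 and say no more of their source, and the p-values therefore measure only the spread between these libraries.

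Tissue macrophages are long-lived phagocytes that depend on the growth factor CSF1 and its receptor, and a part of them renew in place and carry scavenger and uptake receptors such as CD163, LYVE1, the folate receptor FOLR2 and TIM4. Classical monocytes, marked in mice by Ly6C, enter tissues from the blood through CCR2 and can become macrophages there. In BAT both kinds of cell sit between brown adipocytes, take up cell debris and lipid and exchange signals with the nerves and fat cells.

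Ly6C antibodies bind the products of a pair of neighbouring genes, Ly6c2 of monocytes and Ly6c1 of endothelial cells. Their coding sequences are shown because the largest difference among the 10 genes was that of Ly6c2, which depends on reads being told apart from those of Ly6c1. Ly6c2 lies at chr15:74980003-74988467 and Ly6c1 at chr15:74915847-74920686 on the minus strand of GRCm39. Over 396 coding bases the pair differed at 9 bases and was 97.7% identical. Both are printed from bases 1 to 198 and from 199 to 396, counted from the first base of the start codon, with capitals at the bases that differ.
Ly6c2 bases 1 to 198: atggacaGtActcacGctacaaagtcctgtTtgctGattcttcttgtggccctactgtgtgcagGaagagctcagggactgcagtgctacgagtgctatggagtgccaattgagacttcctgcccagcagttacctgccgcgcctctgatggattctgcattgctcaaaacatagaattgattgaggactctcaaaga
Ly6c1 bases 1 to 198: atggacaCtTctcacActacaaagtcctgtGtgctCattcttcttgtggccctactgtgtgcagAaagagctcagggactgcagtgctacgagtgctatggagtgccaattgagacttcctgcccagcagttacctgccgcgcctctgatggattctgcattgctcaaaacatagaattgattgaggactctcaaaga
Ly6c2 bases 199 to 396: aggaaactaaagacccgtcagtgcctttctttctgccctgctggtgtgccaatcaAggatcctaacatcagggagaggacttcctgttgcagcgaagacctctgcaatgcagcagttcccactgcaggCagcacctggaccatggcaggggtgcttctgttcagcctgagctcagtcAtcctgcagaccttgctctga
Ly6c1 bases 199 to 396: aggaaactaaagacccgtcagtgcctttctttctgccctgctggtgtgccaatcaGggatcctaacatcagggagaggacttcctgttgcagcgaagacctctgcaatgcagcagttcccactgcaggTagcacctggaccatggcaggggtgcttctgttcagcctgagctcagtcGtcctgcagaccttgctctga
Of the 688 windows of 150 bases, the length of 1 read, in the canonical Ly6c2 transcript, 39 (5.67%) also occurred in the canonical Ly6c1 transcript, as did 39 of 939 windows (4.15%) the other way. The longest run of identical coding bases was 188. No other of the 10 genes shared such a window with another transcript.

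Total counts were 8159442 to 12874809 per library. Levels below are CPM, each count scaled to a common library total, after TMM scaling of the library sizes, and folds compare sST2-KO with WT. Il1rl1 itself, at 1.43 ± 0.602 CPM in WT and 8.68 ± 5.11 CPM in sST2-KO (SD, n = 3 each), was not lower in the sST2-KO libraries, and its summed count does not separate the secreted from the membrane form and so does not check the labels. Markers of other tissues moved between libraries. A sum of 5 liver genes was 4084 CPM in WT replicate 2 and 7.81 to 43.5 CPM in the other libraries, while a sum of 5 skeletal muscle genes was 5.92 to 977 CPM in WT and 2559 to 10660 CPM in sST2-KO. The sum of 5 brown adipocyte markers was 7657 to 14343 CPM in WT and 300 to 1645 CPM in sST2-KO, with all 5 called lower, and sST2-KO replicate 3 stood apart in most macrophage genes. In bulk RNA a different number of cells of a type and a different amount of RNA per cell cannot be told apart.

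Calls required a fold above 2 together with a Benjamini-Hochberg adjusted p under 0.05 in the quasi-likelihood test of edgeR. By that rule 1 of the 10 genes, Ly6c2, was higher in sST2-KO and 0 were lower, where 9.04% of the 14542 genes tested were called higher and 7.10% lower. Csf1 passed the p-value alone, as did 10.5% of all genes tested in the higher direction and 9.10% in the lower. The 3 WT and 3 sST2-KO values did not overlap for 4 of the 10 genes, Adgre1, Csf1, Cd68 and Ly6c2, each higher in sST2-KO, against 21.8% of all genes tested in that direction, and 0 of the 10 were lower without overlap, against 19.7%. An unadjusted p under 0.05 was reached by 6 of the 10 genes, 4 higher and 2 lower, against 36.2% of all genes tested. DESeq2 called 3 of the 10 higher and 0 lower, where it called 1552 higher and 1254 lower of the same 14542 genes. The median log2 fold change over the 10 genes was 0.72, beside 0.03 over all genes, and became -0.07 without sST2-KO replicate 3, which held the highest value of 7 of the 10 genes.

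**Figure D1:**
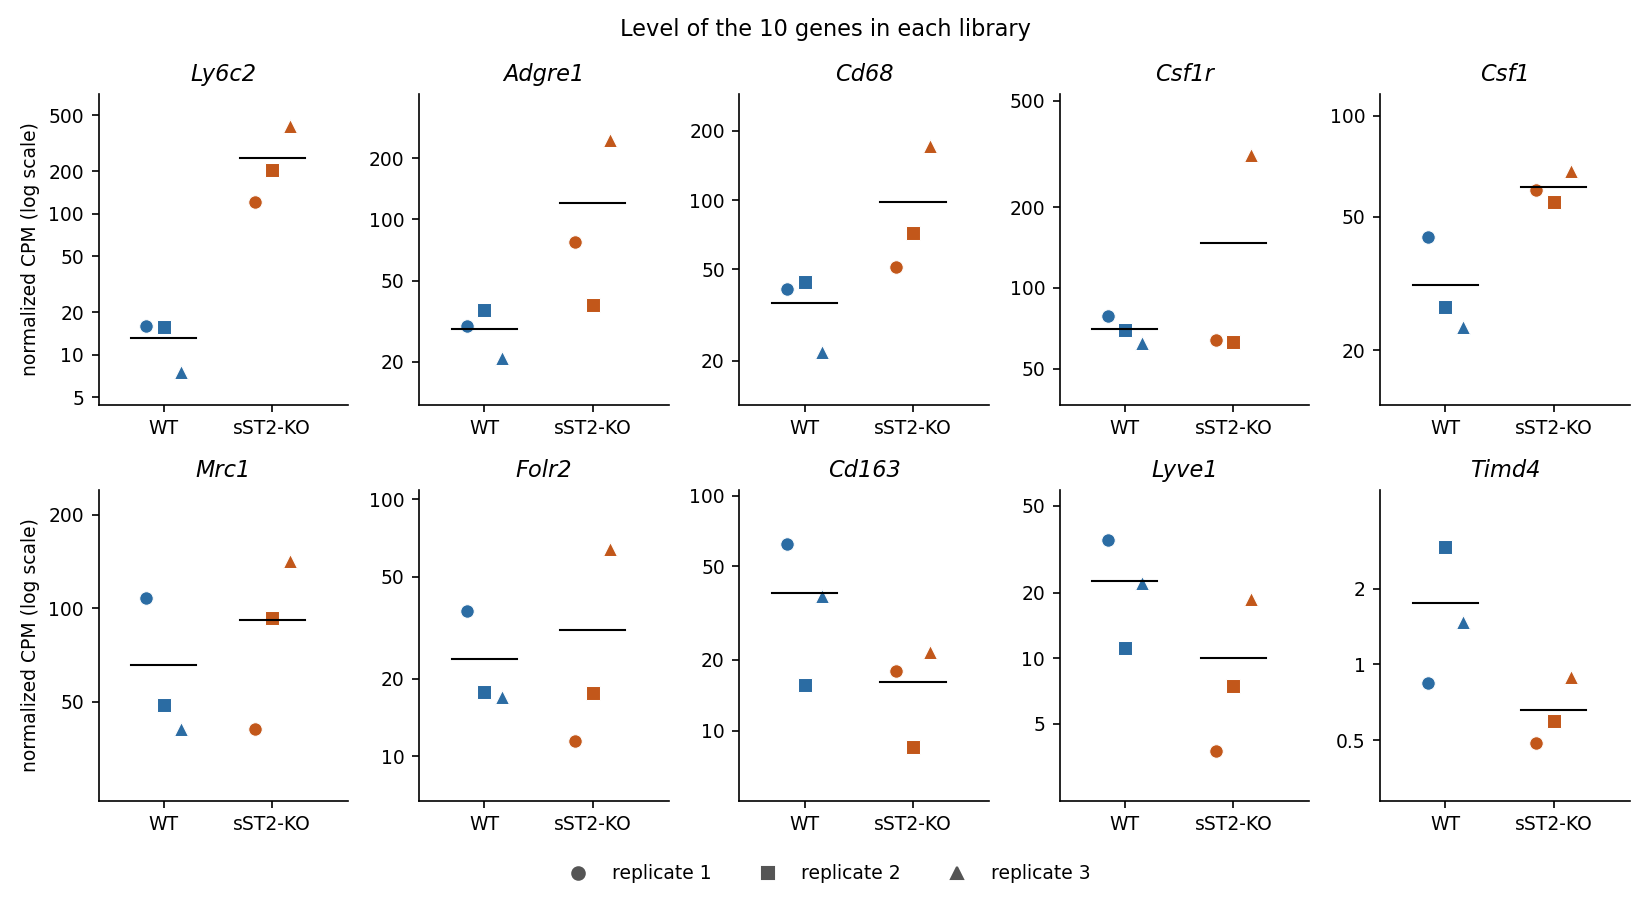
Level of each of the 10 genes in CPM after TMM scaling, with 1 point per library shaped by replicate and a bar at the group mean, WT beside sST2-KO, each panel on its own log axis. Ly6c2, Csf1, Adgre1 and Cd68 show no overlap between the groups, and sST2-KO replicate 3 holds the highest of all values in 7 of the 10 panels.

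Ly6c2, the antigen of classical monocytes, was low in every WT library, with 16.0, 15.7 and 7.52 CPM in replicates 1 to 3, and stood at 122, 203 and 419 CPM in sST2-KO. The lowest sST2-KO library was far above the highest WT library. The group means were 13.1 ± 4.81 and 248 ± 153 CPM (SD, n = 3 each), from counts of 61 to 171 in WT and 1708 to 4241 in sST2-KO. edgeR's quasi-likelihood test put the log2 fold change at 4.24 with a standard error of 0.54, a fold of 18.9, and the Benjamini-Hochberg adjusted p at 0.0122. By size of fold change Ly6c2 stood at rank 97 of the 14542 genes tested. Leaving out WT replicate 3 gave 3.96 with an adjusted p of 0.0563 from edgeR, and the call was lost. Most calls over all genes were lost in that fit too, with 36 higher in place of 1315. Leaving out sST2-KO replicate 3 gave 3.63 with an adjusted p of 0.0148 from edgeR.

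Ly6c1, the endothelial gene of the pair, did not pass the test. Its levels were 586, 570 and 384 CPM in WT and 494, 720 and 537 CPM in sST2-KO, and the groups overlapped. edgeR gave a log2 fold change of 0.18 with an adjusted p of 0.664. Ly6a, a further member of the family that encodes Sca-1, had a log2 fold change of 0.94 with an adjusted p of 0.122 from edgeR.

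Other cells carry Ly6C as well, above all a part of CD8 T cells. The sum of 6 T cell markers was 11.2 to 14.9 CPM in WT and 82.6 to 108 CPM in sST2-KO, and 5 of the 6 were called higher. Cd8a alone was 1.21 to 3.21 CPM in WT and 24.6 to 34.6 CPM in sST2-KO. A sum of 6 neutrophil markers was 23.2 to 126 CPM in WT and 119 to 626 CPM in sST2-KO with 2 of 6 called higher. Ly6g, low in every library, was 0.0933, 0 and 0.863 CPM in WT and 1.53, 1.19 and 2.67 CPM in sST2-KO. It did not overlap between the groups and was not called. The part of these cells in the Ly6c2 difference was not tested. The muscle genes summed to 977, 17.5 and 5.92 CPM in WT replicates 1 to 3, where Ly6c2 was 16.0, 15.7 and 7.52 CPM. In sST2-KO replicates 1 to 3 the muscle sum was 4745, 2559 and 10660 CPM, and Ly6c2 was 122, 203 and 419 CPM. The part of muscle RNA in the Ly6c2 difference was not tested either.

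Genes of monocytes and of their recruitment moved in the direction of Ly6c2. Of 15 such genes 14 were tested, 9 were called higher and 0 lower. Their median was 2.19 on the log2 scale, and 8 were called without sST2-KO replicate 3, 4 without WT replicate 2 and 1 without WT replicate 3. In the last 2 of these the median was 2.37 and 1.87, with 11 and 10 of the 14 at an unadjusted p under 0.05 in edgeR. Of all 14542 genes tested, 4288 and 3646 reached that p in the same fits. For this list and the lists of shared macrophage genes, lineage factors and the colony-stimulating factor axis below, DESeq2 called 0 genes lower, and an unadjusted p under 0.05 in the lower direction was reached by 2 genes, both lineage factors. Ccl2 at 3.62 and Ccl7 at 3.20 on the log2 scale were among those with the largest change, and encode chemokines that draw CCR2-bearing monocytes. Ccl2 was 13.9, 17.9 and 3.08 CPM in WT and 51.1, 178 and 204 CPM in sST2-KO, with no overlap. Itga4 at 1.23, Ccl12 at 2.09 and Spn at 2.29 had the smallest log2 fold changes of the genes called. Ccr2, the chemokine receptor itself, was chosen for mention after its values were seen, at 25.2, 16.1 and 8.88 CPM in WT and 55.4, 86.9 and 114 CPM in sST2-KO. Genes used as markers of the patrolling kind of monocyte differed. Cx3cr1 and Ace had log2 fold changes of 0.10 and 0.03 with adjusted p of 0.928 and 0.949 from edgeR. Spn, another of them, was called higher as given above. Treml4 had 1.505 with an adjusted p of 0.233 from edgeR. Cx3cr1 did not exceed 6.62 CPM in any library and Treml4 did not exceed 3.36 CPM.

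Adgre1 encodes F4/80, the surface adhesion receptor by which mouse macrophages are usually recognised, at chr17:57665573-57790527 on the plus strand. It was 29.9, 35.9 and 21.0 CPM in WT and 77.6, 38.0 and 244 CPM in sST2-KO. All sST2-KO values lay above all WT values, but replicate 2 by little and replicate 3 by far. The means were 28.9 ± 7.52 and 120 ± 110 CPM (SD, n = 3 each). The log2 fold change of 2.05 had a standard error of 0.63 and an adjusted p of 0.0586 from edgeR, just short of the threshold. Without sST2-KO replicate 3 it was 0.99.

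Cd68, an endosomal and lysosomal glycoprotein of phagocytes, lies at chr11:69555037-69557067 on the minus strand. It was 41.1, 43.9 and 21.9 CPM in WT and 50.9, 72.0 and 171 CPM in sST2-KO. The groups did not overlap, and sST2-KO replicate 1 was close to the upper WT libraries. Its log2 fold change was 1.46 with a standard error of 0.48 and an adjusted p of 0.0696 from edgeR, and it was 0.78 without sST2-KO replicate 3. Lamp1 and Lamp2, lysosomal membrane proteins of the same family found in all cells, had log2 fold changes of -0.02 and 0.13 with adjusted p of 0.958 and 0.755 from edgeR. Both Adgre1 and Cd68 passed the call rule with DESeq2, at adjusted p of 0.00406 and 0.016.

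**Figure D2:**
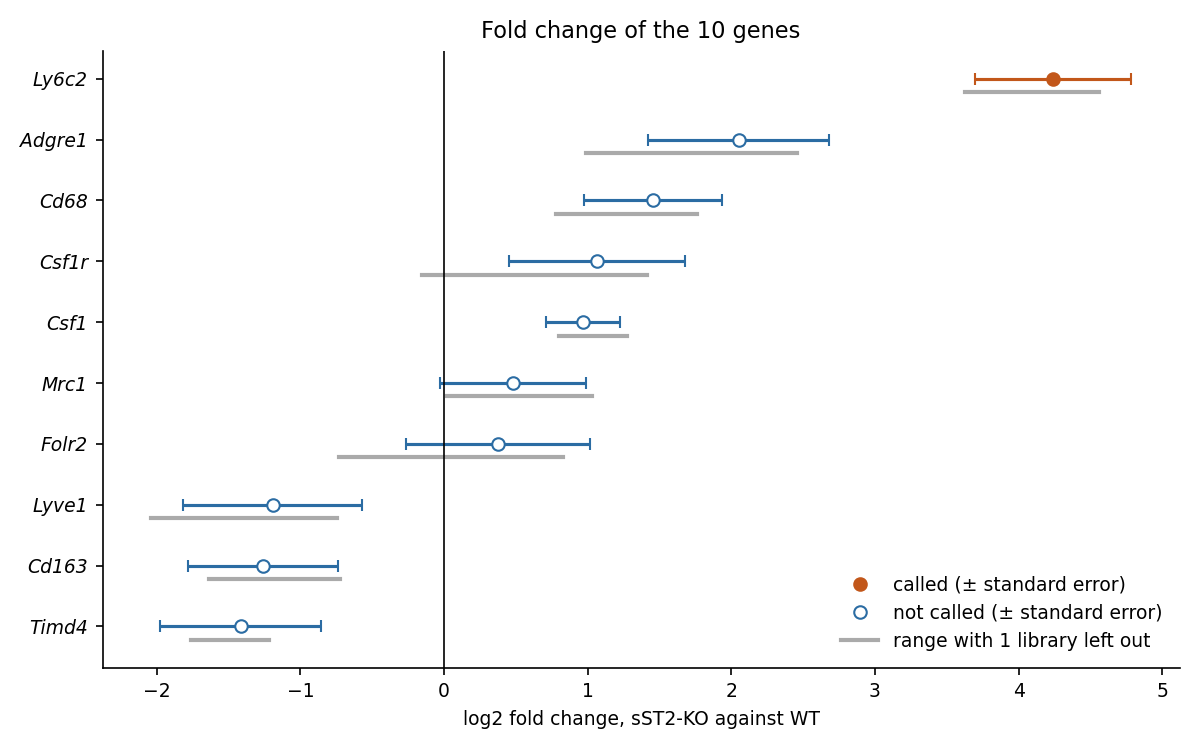
Log2 fold change, sST2-KO over WT, of each of the 10 genes from the test by edgeR, with bars of 1 standard error and a grey line for the range over the fits without each library in turn. Ly6c2 at 4.24, the 1 filled point, is called and stands apart from the other 9, which lie between -1.42 and 2.05.

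A list of 16 genes that most macrophages share gave the wider setting of Adgre1 and Cd68. All 16 were tested, 11 were called higher and 0 lower, and their median log2 fold change was 1.98. sST2-KO replicate 3 was the highest library for 16 of the 16, and without it the median was 1.13 with 8 called. The calls fell to 5 without WT replicate 1, 1 without WT replicate 2 and 0 without WT replicate 3 by edgeR. In the last of these fits the median was still 1.78 and 11 of the 16 had an unadjusted p under 0.05. Of all 14542 genes tested, 3646 had such a p there. Msr1, a scavenger receptor for modified lipoproteins, rose by 2.92 on the log2 scale. Itgam, the integrin chain CD11b that neutrophils and monocytes carry too, rose by 2.67, and Ptprc, which encodes CD45 of all leukocytes, by 2.61. Laptm5 at 1.49, Tyrobp at 1.76 and Fcgr1 at 1.93 had the smallest log2 fold changes of the genes called. Fcgr1 encodes the high-affinity IgG receptor CD64, and Tyrobp the adaptor of many activating receptors of myeloid cells. Mertk and Axl, receptors for the uptake of dying cells, had log2 fold changes of 0.50 and -0.08 with adjusted p of 0.258 and 0.850 from edgeR.

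Of 14 transcription factors of the lineage, all tested, 6 were called higher and 0 lower, and the median was 1.13 on the log2 scale. Spi1 encodes PU.1, the factor without which macrophages do not form. It was 19.1, 21.7 and 15.5 CPM in WT and 56.0, 51.0 and 132 CPM in sST2-KO, without overlap, with a log2 fold change of 2.08 and an adjusted p of 0.0168 from edgeR. The others called were Tfec at 2.76, Runx1 at 2.45, Irf5 at 1.40, Bach1 at 1.23 and Irf8 at 1.23 on the log2 scale. The calls fell to 1 without sST2-KO replicate 3, with a median of 0.66, to 2 without sST2-KO replicate 2 and to 3 without WT replicate 1. edgeR called 0 without WT replicate 2 and 0 without WT replicate 3. In each of these fits 8 of 14 had an unadjusted p under 0.05, and the medians were 1.08 and 0.95. Of all 14542 genes tested, 4288 and 3646 had such a p. Nr1h3, which encodes the sterol sensor LXR alpha, was 84.0, 96.1 and 117 CPM in WT and 55.3, 45.7 and 53.3 CPM in sST2-KO, and it passed the p-value at 0.0195 from edgeR with a log2 fold change of -0.94, short of the fold of 2.

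Because Spi1 moved, the stretch from 250 bases before to 50 bases after the start of the canonical transcript was searched for GAGGAA, the core that PU.1 binds, on both strands. The core was present in 3 of the 8 of these genes searched, 3 times in Mrc1, 2 times in Ly6c2 and once in Cd68, and in 27.5% of 21751 promoters of the genome. The longer GAGGAAGT, which contains the core, was found at both places in Ly6c2 and at 1 place in Ly6c1, and in 3.08% of all promoters. The stretches of Ly6c2 and Ly6c1, the pair with unlike changes, are shown from GRCm39 in the direction of the gene, with the core in capitals on either strand.
Ly6c2 chr15:74983778-74984077 minus strand: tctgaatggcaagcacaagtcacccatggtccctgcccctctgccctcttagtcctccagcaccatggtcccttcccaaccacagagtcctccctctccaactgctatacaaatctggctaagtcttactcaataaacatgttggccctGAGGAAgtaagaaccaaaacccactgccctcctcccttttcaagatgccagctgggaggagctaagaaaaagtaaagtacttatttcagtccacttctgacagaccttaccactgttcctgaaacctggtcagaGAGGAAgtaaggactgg
Ly6c1 chr15:74920614-74920913 minus strand: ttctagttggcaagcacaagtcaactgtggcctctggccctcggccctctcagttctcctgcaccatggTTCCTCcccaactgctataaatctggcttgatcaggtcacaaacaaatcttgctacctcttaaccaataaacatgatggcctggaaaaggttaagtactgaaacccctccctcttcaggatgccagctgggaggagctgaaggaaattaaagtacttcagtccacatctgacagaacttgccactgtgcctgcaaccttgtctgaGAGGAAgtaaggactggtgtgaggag
In Ly6c2 the matches began 101 bases before the start and 33 bases after it, and in Ly6c1 24 bases after it, with the other on the opposite strand, so the later match is shared by the gene that rose and the gene of the pair that did not pass the test. No core was found in this window of Csf1, Cd163, Lyve1, Folr2 or Timd4. TGAGTCA, the site of AP-1, was present in Cd68 and Folr2 and in 4.70% of all promoters, and TATAAA in Ly6c1, in none of the 8 and in 13.2%. These matches are letters in a window, and binding was not measured.

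The companion lists around the 10 genes differed by kind. Lists of shared macrophage genes and of monocyte genes had median log2 fold changes of 1.98 and 2.19, and a list of resident macrophage genes had a median of 0.39.

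**Figure D3:**
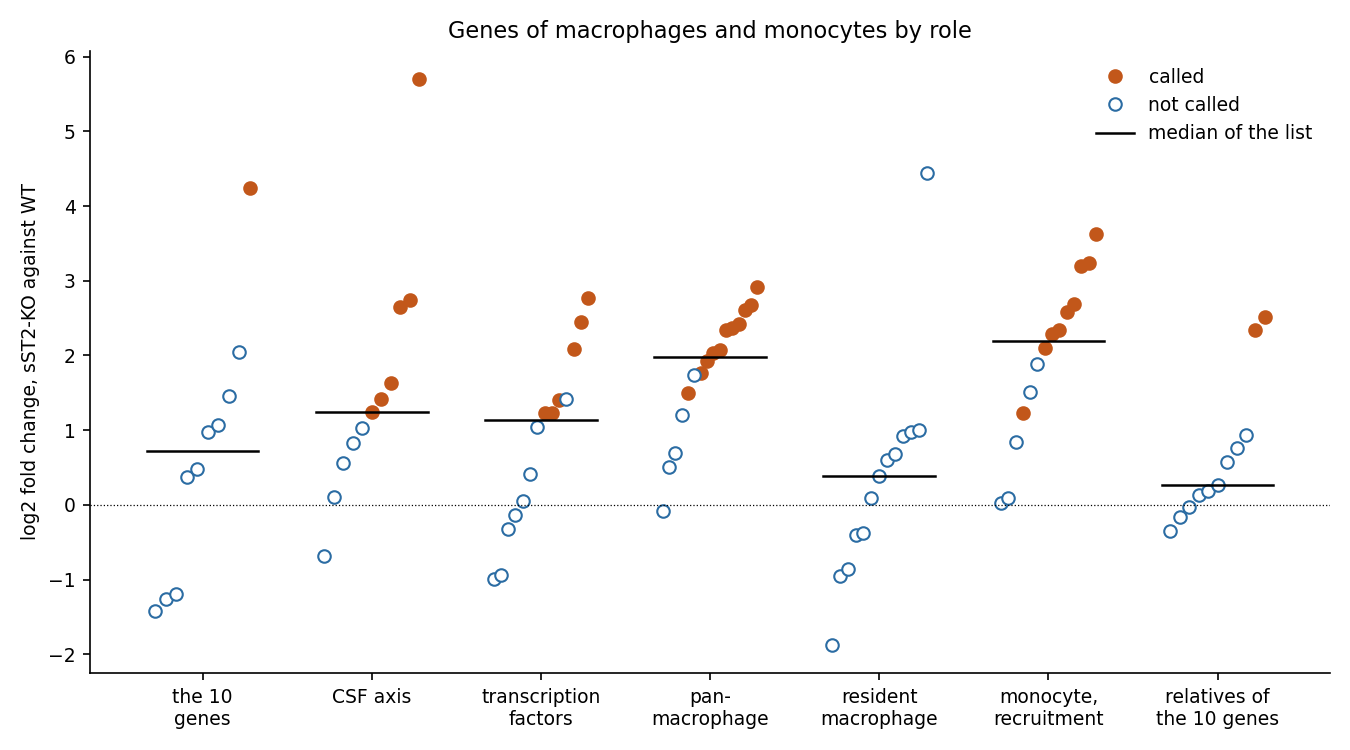
Log2 fold change of every tested gene of the 10 and of 6 companion lists, 1 point per gene, with filled points for genes called and a bar at the median of the list. The medians are 2.19 for monocyte and recruitment genes, 1.98 for genes shared by macrophages and 0.39 for resident macrophage genes.

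Csf1 encodes the growth factor on which macrophages live, made by stromal and fat cells rather than by macrophages alone, and lies at chr3:107648364-107667806. Its level was 43.4, 26.9 and 23.4 CPM in WT and 59.9, 55.2 and 68.5 CPM in sST2-KO. The sST2-KO libraries lay close together and above all WT libraries, and sST2-KO replicate 3 stood out less than in other genes. The means were 31.2 ± 10.7 and 61.2 ± 6.77 CPM (SD, n = 3 each). The log2 fold change of 0.97, a fold of 1.96, had a standard error of 0.26 and an adjusted p of 0.0383 from edgeR. That p rose above 0.05 when any library but WT replicate 1 was left out, to between 0.0678 and 0.139.

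Csf1r, the receptor of CSF1 and of interleukin-34, lies on chromosome 18 from base 61229714 to 61266535. It was 78.8, 69.5 and 62.3 CPM in WT and 64.0, 63.0 and 313 CPM in sST2-KO. sST2-KO replicates 1 and 2 lay within the WT values and replicate 3 far above them. From edgeR it had a log2 fold change of 1.06 with a standard error of 0.61 and an adjusted p of 0.253, and without sST2-KO replicate 3 it was -0.15. The receptor and its growth factor thus had different patterns over the 6 libraries. Il34, the second ligand, was 8.40, 9.14 and 8.88 CPM in WT and 6.90, 6.05 and 3.46 CPM in sST2-KO, without overlap, with a log2 fold change of -0.68 and an adjusted p of 0.159 from edgeR.

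Around them, 12 genes of the colony-stimulating factor axis were listed and 11 tested, of which 6 were called higher and 0 lower, and the median was 1.24 on the log2 scale. The largest was Csf3, the neutrophil growth factor G-CSF, at 5.70 on the log2 scale, from 0.187, 0.848 and 0.123 CPM in WT to 10.2, 8.31 and 46.0 CPM in sST2-KO. Csf3r, its receptor on neutrophils and monocytes, rose by 2.75. The receptor chains of GM-CSF, Csf2ra and Csf2rb, rose by 1.41 and 1.63, and Inpp5d, the phosphatase SHIP1 of blood cells, by 1.24. Csf2, which encodes GM-CSF itself, had 7 counts or fewer in every library and was not tested. Without sST2-KO replicate 3, 3 of the 11 were called with a median of 0.89. Without WT replicate 3, edgeR called 0, with 7 of 11 at an unadjusted p under 0.05 and a median of 1.16. Of all 14542 genes tested, 3646 had such a p in that fit.

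The receptors of resident macrophages formed the other 5 of the 10 genes. Of these 0 were called by edgeR or by DESeq2, and Cd163 and Timd4 had an unadjusted p under 0.05 in edgeR, 0.0437 and 0.0371. Mrc1 encodes the mannose receptor CD206, at chr2:14234151-14336926. It was 108, 48.9 and 40.9 CPM in WT and 41.0, 93.3 and 142 CPM in sST2-KO, and the groups overlapped over most of their range. Mrc1 had a log2 fold change of 0.48 with a standard error of 0.51 and an adjusted p of 0.536 from edgeR.

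Cd163, the scavenger receptor for haemoglobin bound to haptoglobin, at chr6:124281606-124307560, was 62.6, 15.7 and 37.4 CPM in WT and 18.0, 8.54 and 21.6 CPM in sST2-KO. The upper WT libraries lay above all sST2-KO libraries and WT replicate 2 lay among them. The means were 38.6 ± 23.5 and 16.1 ± 6.75 CPM (SD, n = 3 each), with a log2 fold change of -1.26, a standard error of 0.52 and an adjusted p of 0.127 from edgeR. Leaving out any 1 library kept the log2 fold change between -1.64 and -0.72.

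Lyve1, a hyaluronan receptor of vessel-associated macrophages and of lymphatic endothelium, at chr7:110448585-110462460, was 35.0, 11.1 and 22.1 CPM in WT and 3.76, 7.48 and 18.7 CPM in sST2-KO. The groups overlapped only through WT replicate 2 and sST2-KO replicate 3. Lyve1 had a log2 fold change of -1.19 with a standard error of 0.62 and an adjusted p of 0.208 from edgeR, and -2.04 without sST2-KO replicate 3. Of 6 lymphatic endothelial markers 4 were tested and 0 called by edgeR, with a sum of 45.9 to 50.7 CPM in WT and 34.6 to 90.4 CPM in sST2-KO. Prox1, the factor that defines that endothelium, did not exceed 1.32 CPM in any library, and Ccl21a was at 0 in 5 of the 6. Most of the sum came from Flt4 and Pdpn, which other cells also express. The tested markers differed in direction. Pdpn was 16.9, 6.97 and 6.90 CPM in WT and 7.81, 22.7 and 74.5 CPM in sST2-KO, with a log2 fold change of 1.76, and Flt4 had one of -0.30. The other 2, both low, had lower values in sST2-KO as Lyve1 did, Mmrn1 at 3.73, 2.45 and 1.36 CPM in WT and 0.488, 1.19 and 0.197 CPM in sST2-KO, and Reln at 2.99, 3.11 and 1.85 CPM in WT and 0.279, 1.42 and 0.889 CPM in sST2-KO. Mmrn1 and Reln did not overlap between the groups and were not called, with adjusted p of 0.0614 and 0.0754 from edgeR, beside 0.146 for Pdpn and 0.583 for Flt4. The part of lymphatic endothelium in the Lyve1 difference was not tested.

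Folr2, the folate receptor of resident macrophages, at chr7:101489195-101506401, was 36.7, 17.8 and 17.0 CPM in WT and 11.4, 17.6 and 64.2 CPM in sST2-KO. Replicates 1 and 2 of sST2-KO were within or under the WT values and replicate 3 was the highest of all. Folr2 had a log2 fold change of 0.38 with a standard error of 0.64 and an adjusted p of 0.706 from edgeR, and it was -0.73 without sST2-KO replicate 3. A sum of 5 fibroblast markers was 5137, 1591 and 1815 CPM in WT and 927, 1783 and 8179 CPM in sST2-KO, highest in sST2-KO replicate 3 and WT replicate 1, as was Folr2. The part of this in Folr2 was not tested.

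Timd4 encodes TIM4, a phosphatidylserine receptor of long-lived macrophages, at chr11:46701620-46735177. It was near the limit of the count table, with 9, 31 and 12 counts in WT and 7, 5 and 9 counts in sST2-KO, or 1.75 ± 1.07 and 0.657 ± 0.208 CPM (SD, n = 3 each). Its WT value was highest in replicate 2, the library with liver genes, where Clec4f of liver macrophages had 173 counts and at most 1 in any other library. Timd4 had a log2 fold change of -1.42 with a standard error of 0.56 and an adjusted p of 0.114 from edgeR. Without WT replicate 2 the gene had too few counts to be tested. Of its relatives, Havcr2, which encodes TIM-3 of T cells and myeloid cells, rose by 2.34 on the log2 scale. Havcr1 had 1 count or fewer per library and Timd2 had 24 counts in WT replicate 2 alone.

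A list of 16 further resident macrophage genes, 13 of them tested, held 0 genes called in either direction by edgeR, with a median log2 fold change of 0.39, and of -0.20 without sST2-KO replicate 3. An unadjusted p under 0.05 was reached by 3 of the 13, 2 higher and 1 lower. DESeq2, with its own filter on low counts, called 0 of the 16 higher and 2 lower, Mgl2 and Vsig4. Mgl2, a lectin of alternatively activated macrophages, was 9.33, 6.31 and 13.2 CPM in WT and 1.18, 5.46 and 1.38 CPM in sST2-KO, without overlap, with a log2 fold change of -1.88 and an adjusted p of 0.0708 from edgeR. Vsig4, a complement receptor of resident macrophages, had 12, 23 and 7 counts in WT and 5, 0 and 1 counts in sST2-KO. These were too few for the filter of edgeR, and DESeq2 gave a log2 fold change of -3.09 with an adjusted p of 0.0219. Its highest count was in WT replicate 2, the library with liver genes, and the part of liver RNA in Vsig4 was not tested. Mgl2 and Vsig4 were named after their values were seen. At the other end Marco, a scavenger receptor, was 0.373, 1.60 and 0 CPM in WT and 28.9, 0.119 and 16.5 CPM in sST2-KO, with an adjusted p of 0.0738 from edgeR.

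Among the relatives of the 10 genes, 11 of 16 were tested and 2 were called higher, Havcr2 and Cd44. The calls were 1 without WT replicate 1, WT replicate 2 or sST2-KO replicate 3, and 0 by edgeR without WT replicate 3. In the last of these fits 3 of 11 had an unadjusted p under 0.05, where 3646 of all 14542 genes tested did. Cd44 encodes a hyaluronan receptor related to LYVE1 that leukocytes and activated cells carry. It was 35.1, 28.2 and 13.8 CPM in WT and 58.2, 112 and 273 CPM in sST2-KO, with a log2 fold change of 2.52. The pair of hyaluronan receptors thus had log2 fold changes of opposite sign, of which only that of Cd44 passed the test.

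**Figure D4:**
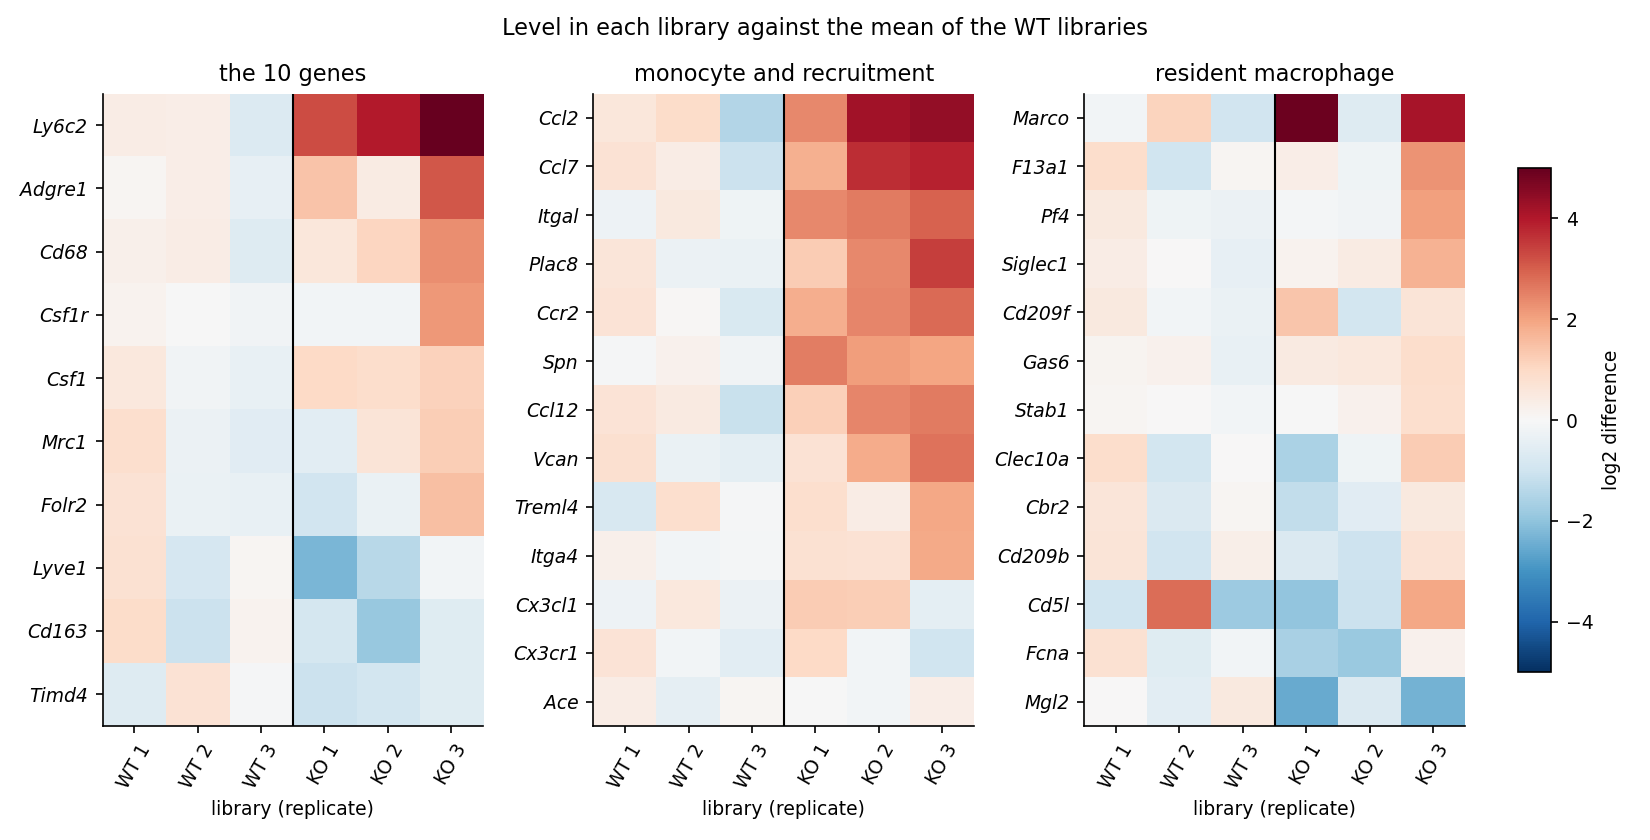
Log2 CPM plus 0.5 of the 10 genes, of 13 monocyte and recruitment genes and of 13 resident macrophage genes in each of the 6 libraries (KO for sST2-KO), each gene shown as its difference from its mean over the WT libraries, in blue below and red above. sST2-KO replicate 3 has the highest value in 7 of the 10 genes and in 7 of the 13 resident macrophage genes.

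To see whether the genes moved by unequal amounts, counts were divided by those of Adgre1 in the same library. Adgre1 is a single macrophage gene and does not measure macrophage content. In sST2-KO replicate 1 it was 77.6 CPM, above all WT libraries, while Csf1r at 64.0 CPM lay within the WT values. Ratios to another macrophage gene were not tested, and the differences below hold for Adgre1 alone. For the comparison on a log2 scale 0.5 was first added to each CPM. Cd163 stood at 2.09, 0.438 and 1.78 counts per Adgre1 count in WT and at 0.232, 0.225 and 0.0885 in sST2-KO. Lyve1 stood at 1.17, 0.310 and 1.05 in WT and at 0.0485, 0.197 and 0.0764 in sST2-KO. For both, every WT ratio was above every sST2-KO ratio, and the mean log2 ratio differed by -2.78 and -2.93.

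The ratios of Timd4, Folr2 and Csf1r were also lower in sST2-KO without overlap, by -2.52, -1.58 and -1.02 on the log2 scale. That of Ly6c2 was the one that was higher, at 0.533, 0.438 and 0.359 in WT and 1.58, 5.34 and 1.71 in sST2-KO, a log2 difference of 2.43. Mrc1 at -1.21, Csf1 at -0.65 and Cd68 at -0.33 overlapped between the groups, with exact p of 0.3, 0.7 and 0.5. For each of the 6 that did not overlap the exact two-sided permutation test gave 0.1, the smallest p that 3 against 3 allows, and 0.15 after adjustment over the 9 ratios. Adgre1 is in every ratio, so the 9 are not independent of each other, and a higher Adgre1 count by itself lowers them all.

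**Figure D5:**
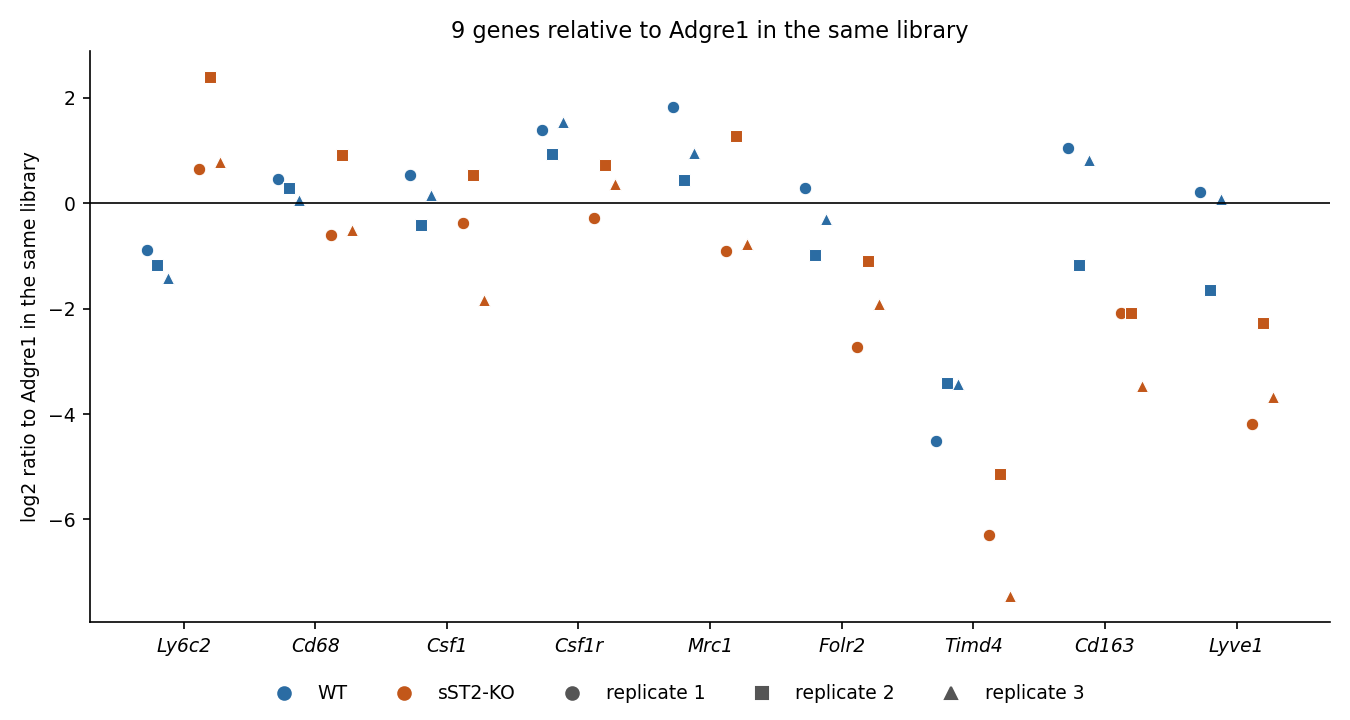
Log2 ratio of CPM plus 0.5 of each of the other 9 genes to that of Adgre1 in the same library, 1 point per library, WT beside sST2-KO. The ratio of Ly6c2 is higher in all 3 sST2-KO libraries and those of Cd163, Lyve1, Timd4, Folr2 and Csf1r are lower.

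Levels of different genes were compared as CPM per kilobase of the union of all annotated exons. In WT the order was Cd68 at 26.1 ± 8.74, Folr2 at 15.0 ± 6.98, Csf1r at 9.54 ± 1.13, Mrc1 at 8.42 ± 4.68, Adgre1 at 8.22 ± 2.14, Cd163 at 6.95 ± 4.23, Lyve1 at 5.46 ± 2.87, Csf1 at 5.31 ± 1.82, Ly6c2 at 4.28 ± 1.57 and Timd4 at 0.441 ± 0.269 CPM per kilobase (SD, n = 3). Only the last step, from Ly6c2 to Timd4, was larger than the range of the libraries, and the other 8 neighbouring pairs overlapped. In sST2-KO Ly6c2 was first, at 81.1 ± 50.2 CPM per kilobase, beside Cd68 at 71.6 ± 46.9 and Adgre1 at 34.1 ± 31.1 CPM per kilobase. Csf1r at 19.9 ± 19.6, Folr2 at 19.5 ± 18.1, Mrc1 at 11.8 ± 6.46 and Csf1 at 10.4 ± 1.15 CPM per kilobase followed, and each neighbouring pair from Ly6c2 down to Csf1 overlapped. Cd163 at 2.89 ± 1.22 and Lyve1 at 2.39 ± 1.86 CPM per kilobase overlapped each other and lay under Csf1, and Timd4 at 0.166 ± 0.0524 CPM per kilobase lay under Lyve1 in every library. The place of Ly6c2 in WT depends on the length used, since the union spans 3056 bases and the canonical transcript 837. Per kilobase of canonical transcript, a choice made after seeing the data, Ly6c2 was at place 3 in WT, at 15.6 ± 5.74 CPM, between Folr2 at 21.7 ± 10.1 and Mrc1 at 12.0 ± 6.67 CPM, with overlap on both sides. In sST2-KO it was again first, at 296 ± 183 CPM per kilobase of canonical transcript, above Cd68 at 81.8 ± 53.6 CPM without overlap.

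The genes whose profile over the 6 libraries was nearest to each of the 10 were found by the Euclidean distance of log2 CPM centred on the mean of the gene, among 14542 genes, as a description. The nearest to Csf1r were C1qa, a complement chain made by macrophages, at 0.378, Pf4 at 0.431 and Tmem86a at 0.483 log2 units. Cd68 was nearest to Hcar2, a receptor of hydroxybutyrate, at 0.312, then Gm11201 and Pld4. Adgre1 was nearest to Aoah, an enzyme that inactivates endotoxin, at 0.562, then Txlnb and Lpcat2.

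The profiles of the remaining genes lay nearest to genes of other tissues or kinds. Ly6c2 was nearest to Ampd1, the AMP deaminase of skeletal muscle, at 0.568, then I830127L07Rik and Camk2a at 0.740 and 0.913, and the part of the muscle RNA in this likeness was not tested. Folr2 was nearest to Col5a2, a collagen chain, at 0.385, then Fbln2 and Gabra3, and Mrc1 to Gm5431 at 0.418, Cpxm1 and Pdgfc. Cd163 was nearest to Nox4 at 0.447, Abca9 and Rsrp1, and Lyve1 to Lrrc15 at 0.581, Fxyd2 and Clec3b. Timd4 was nearest to Muc6 at 0.578, Aldh7a1 and Fam20a, and Csf1 to Nucb2 at 0.115, Btbd3 and Tet3, the closest of all 10.

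Of the 10 genes, 5 overlap genes on the opposite strand, whose reads cannot be told apart from theirs since the use of strand in the counting was not given in the sources used here. They are Csf1r with Hmgxb3, Csf1 with Gm40121, Cd68 with Gm73992, Cd163 with Gm56975 and Folr2 with Gm10602 and Gm45319. Adgre1, Lyve1, Timd4 and Ly6c2 overlap no other gene in the annotation.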

How the data were processed

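RNA of BAT from 3 WT and 3 sST2-KO mice was sequenced as paired reads of 150 bases. The authors aligned the reads to mm39 with HISAT2, ran htseq-count over the genes and deposited raw, not normalized counts for each gene symbol. The submitters' processing notes name FastQC 0.12.1 and HISAT2 2.2.1, and the annotation and the use of strand in counting are not given in the sources used here. The groups and replicate numbers come from the sample labels, and 0 columns of sample values were left unused.

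The counts went into edgeR 4.0.16 under R 4.3.3. The filter filterByExpr left 14542 of 35976 genes, TMM set the scaling, and the groups were compared by the quasi-likelihood F test (glmQLFit, glmQLFTest) with no other term in the model. Benjamini-Hochberg adjustment ran over all genes tested. Calls required a fold above 2, as in the study, and an adjusted p under 0.05, chosen here. The study's tool, DESeq2 (1.42.0), is an alternative. The standard error is the size of the log2 fold change divided by the square root of F. The common biological coefficient of variation was 0.325. Libraries of a group differed by 36.6 to 104 in chi-square per degree of freedom, and each was counted as a sample of its own. The log2 ratios to Adgre1 and their exact permutation test used CPM plus 0.5, and the ratios printed per library had nothing added. With 0.1 in place of 0.5 the log2 difference of Timd4 was -2.82 rather than -2.52. The calls by edgeR and by DESeq2 were tested on simulated counts, and the other steps were not. Figures were drawn with matplotlib 3.10.9.

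The 10 genes, the 6 companion lists of 89 genes and the 15 marker lists were chosen with earlier results of these data known, and the motifs after the values were seen. The text names all 10 genes with their 3 nearest profiles, Ly6c1 and Il1rl1 and, of each companion list, every gene called or, past 6, the 3 largest and 3 smallest changes among those called. Some genes that the rule selects and some stretches of sequence are not reported here. Other companion genes named beside one of the 10 were chosen after their values were seen. Coordinates and sequences come from GRCm39, the build of the files, with the GENCODE annotation. Alternatives were other size factors, filters, tools, fold limits and pseudocounts, a replicate block and leaving out each library.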

Additional observations from a re-analysis of the deposited data

How the results depend on the processing

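Each group had 3 libraries, and sST2-KO replicate 3 stood far from the others in most macrophage genes. Timd4 was also low in counts. How far the spread between libraries and the depth each limit these values was not tested. Under the alternatives, single genes were judged by direction and by an adjusted p under 0.05 at any fold, and ratios by direction alone. Of 191 such values 174 stayed the same, 8 lost and 7 gained that adjusted p and 2 reversed. Those are Csf1r at -0.15 and Folr2 at -0.73, both without sST2-KO replicate 3. Leaving out 1 library gave log2 fold changes of -0.15 to 1.42 for Csf1r and of -0.73 to 0.82 for Folr2. Ly6c2 lost its call under the replicate block and without WT replicate 3 and kept it in the other 11 alternatives. Of the 10 genes, 3 were called higher with total counts, 3 without a filter and 3 with DESeq2. At a fold of 1.5 it was 2, with no minimum fold 2, and 0 to 2 when 1 library was left out. The higher calls over all genes were 1840 with total counts, 1519 at a fold of 1.5 and 1524 with no minimum fold. Without a filter they were 1484 of 24599 genes, and DESeq2 called 1552 of the 14542 genes that edgeR tested. Total counts moved the median log2 fold change of all genes from 0.03 to 0.29. Of the companion genes 34 were called higher and 0 lower. Without 1 library 1 to 37 were higher, the fewest without WT replicate 3, and 0 to 2 lower. Lower calls were 1 without a filter (Vsig4), 2 with DESeq2 (Vsig4 and Mgl2), 1 at a fold of 1.5 and 1 with no minimum fold. Over all genes 1315 were called higher and 1033 lower, 36 to 1383 and 22 to 998 when 1 library was left out, the fewest without WT replicate 3. Leaving out WT replicate 2 gave 391 and 480, and leaving out sST2-KO replicate 3 gave 683 and 641. The causes of these changes were not tested.

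The replicate block called 0 of the 10 genes in either direction, with 3 at an unadjusted p under 0.05, and 0 companion genes. Over all genes it called 0 higher and 0 lower, with 4623 at an unadjusted p under 0.05 by edgeR. Under the block Ly6c2 had a log2 fold change of 4.09 and an adjusted p of 0.0644 from edgeR. Deviations of libraries with the same number correlated at -0.058, 0.21 and -0.31 for numbers 1 to 3, which gave no sign of pairing, and whether the numbers mark pairs of littermates is not stated in the labels.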

Other observations

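The remaining marker lists placed the 10 genes among the other cells of the tissue. The sum of 10 macrophage markers was 641 to 923 CPM in WT and 1255 to 5416 CPM in sST2-KO, and that of 5 monocyte markers 61.3 to 123 CPM in WT and 358 to 1168 CPM in sST2-KO, both without overlap. These lists hold some of the 10 genes. All 5 monocyte markers and 4 of the 10 macrophage markers were called higher. Lyz2 was the largest part of the macrophage sum in every library, at 265 to 352 CPM in WT and 585 to 3383 CPM in sST2-KO. Csf1r, Mrc1, Mertk and C1qa of that list overlapped between the groups. Of 5 dendritic cell markers 1, Xcr1, was called higher, at 0.848 to 0.933 CPM in WT and 1.74 to 3.16 CPM in sST2-KO. The sum of the 5 was 41.6 to 62.1 CPM in WT and 25.9 to 43.3 CPM in sST2-KO. Most of it was Zbtb46, at 53.2, 32.9 and 50.8 CPM in WT and 26.1, 31.7 and 12.0 CPM in sST2-KO, not called. Flt3 and Clec9a, not called, had log2 fold changes of 0.82 and 0.51. Cd209a did not exceed 1.40 CPM, had a lower mean in sST2-KO and was not tested. Blood endothelial markers summed to 1442 to 1568 CPM in WT and 1336 to 2017 CPM in sST2-KO, with 1 of 5, Kdr, called lower. Mast cell markers summed to 98.1 CPM in sST2-KO replicate 3 and to 4.05 to 9.48 CPM in the other 5 libraries. B cell markers stayed at 5.3 CPM or less in every library. Markers of all adipocytes summed to 12793 to 15977 CPM in WT and 4491 to 8795 CPM in sST2-KO.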
